A study of Mus musculus with 6 samples.

Results

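The 10 genes described here encode dual-specificity MAP kinase phosphatases of the mouse: Dusp1, Dusp2, Dusp3, Dusp4, Dusp5, Dusp6, Dusp7, Dusp8, Dusp10 and Dusp16. They were chosen by gene symbol, with earlier results of these data known. All 10 were found among the 36706 genes and transcribed features of the deposited tables. RNA was sequenced from bone marrow-derived macrophages, which are macrophages grown from marrow with M-CSF, a growth factor, in 2 groups of 3 libraries. One group was left untreated and the other received IFN-γ (interferon-gamma), a T cell and NK cell cytokine that turns on antimicrobial functions of macrophages, and both were labelled wild type and 3 h. The labels give no strain, age, sex or dose of IFN-γ, and nothing in them says that replicates came from separate mice or cultures. All p-values therefore speak only to the spread among the libraries at hand, which may be technical.

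MAP kinases (ERK, JNK and p38) are switched on by kinases that phosphorylate a threonine and a tyrosine in their activation loop. Dual-specificity phosphatases remove both phosphates and so switch the MAP kinase off, and many are themselves made in response to MAP kinase activity, which makes them feedback inhibitors. In macrophages this family is known for limiting how long and how strongly inflammatory genes are expressed. By textbook grouping, Dusp1, Dusp2, Dusp4 and Dusp5 are nuclear and inducible, Dusp6 and Dusp7 are cytoplasmic and act mainly on ERK, and Dusp8, Dusp10 and Dusp16 act mainly on JNK and p38. Dusp3 is a small phosphatase that lacks the kinase-interaction domain of the others.

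Macrophages given IFN-γ for 3 h had more transcript of all 3 JNK- and p38-selective phosphatases and of nuclear Dusp2, and less of both ERK-selective cytoplasmic phosphatases and of Dusp3. Dusp10 had the largest change in the family, 6.14-fold higher, while Dusp2 was 2.75-fold, Dusp8 2.70-fold and Dusp16 2.05-fold higher. Dusp2 and Dusp8 had no stable order, since their log2 fold changes were 1.35 and 1.61 without untreated replicate 1 and 1.56 and 1.21 without untreated replicate 2. Dusp6 was 1.64-fold lower. Dusp1, one of the most abundant members, was not called, nor were Dusp4, whose untreated libraries were widely spread, and Dusp5. The changes did not split the 10 members by substrate. Dusp1, which also acts mainly on p38 and JNK, had a log2 fold change of -0.07, and Dusp5, which is selective for ERK, one of 0.17. In all, 4 of the 10 genes were higher and 3 lower (quasi-likelihood test in edgeR, p under 0.05 after Benjamini-Hochberg adjustment over 12968 genes tested), where 19.6% of all genes tested were called higher and 16.8% lower. All 4 that rose did so at least 2-fold. Thus 4 of the 10 members were called higher and at least 2-fold, against 6.17% of all genes tested. One of them, Dusp16, was under 2-fold in some of the other settings, given below. The median log2 fold change was 0.05 over the 10 members and -0.01 over all genes tested. In 8 of the 10 members the groups did not overlap, against 50.1% of all genes. Dusp8 lay close to the filter on low counts, which 2 of its 3 untreated libraries and all 3 IFN-γ libraries passed. Of the other 9 members, 3 were higher, each at least 2-fold.

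**Figure D1:**
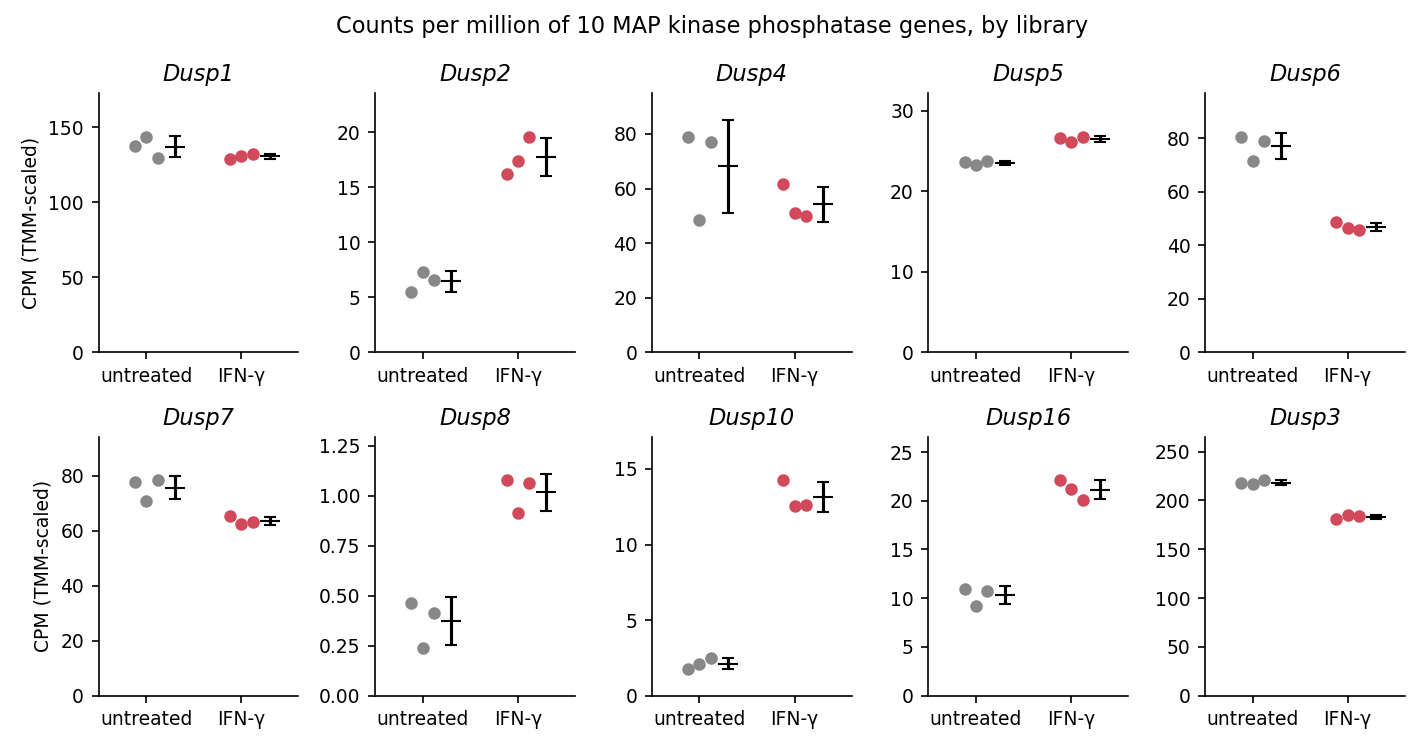
Level of each gene in CPM (counts scaled to library size with TMM factors) in the 3 untreated and 3 IFN-γ libraries, 1 point per library, with mean and SD in black and each vertical axis starting at 0. The groups are separate for every gene except Dusp1 and Dusp4, and the SD of untreated Dusp4 is wide because 1 library lies at 48.4 CPM and the others at 76.9 and 79.04.

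Total counts ran from 28133342 to 34233607 per library, and the 10 members together took 16995 to 21201 of them. A floor of 3 counts corresponded to between 0.089 and 0.101 CPM. The macrophage label was met by its markers: all 10 fixed macrophage genes were above 1 CPM on average, with a summed level of 19795 to 21377 CPM untreated and 20889 to 22196 CPM with IFN-γ. Markers of other cells were low, with summed levels of 70.7 to 94.1 CPM untreated and 121 to 133 CPM with IFN-γ for 8 neutrophil genes, mostly S100a8 and S100a9, 7.74 to 9.90 CPM over all libraries for 4 progenitor genes, and 1.58 to 5.01 CPM for the T cell and B cell lists. The NK cell list went from 0.372 to 0.712 CPM untreated to 7.76 to 8.89 CPM with IFN-γ, nearly all of it Klrk1, and the dendritic cell list from 2.79 to 3.08 CPM to 6.71 to 7.30 CPM. Mast cell, fibroblast and erythroid lists stayed at or below 1.602 CPM in every library, and Cd3e, Fcer1a, Tpsb2 and Hba-a2 had 0 counts throughout, which allows up to the floor of 3 counts in each library. The part of these marker changes in the results below was not tested. Fewer cells of a type and less RNA per cell cannot be told apart in such bulk samples.

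The genes of the class named JNK- and p38-selective, which does not include Dusp1, all rose. Dusp10, which inactivates JNK and p38, lies on chromosome 1, plus strand, from 183766575 to 183807833, with 8386 exon bases; these and the other gene coordinates are those of the tables, whose start and end match the mm10 (GRCm38) annotation for none of the 10 genes. Its counts were 54, 62 and 84 in untreated replicates 1, 2 and 3 and 463, 386 and 391 in IFN-γ replicates 1, 2 and 3. Every IFN-γ library was above every untreated one by a wide margin. The mean level rose from 2.13 ± 0.349 CPM to 13.1 ± 0.971 CPM (mean ± SD, n = 3 each), and edgeR estimated a log2 fold change of 2.62 ± 0.12 (SE) (adjusted p = 1.37e-06).

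Dusp16, a phosphatase directed mainly at JNK, is on chromosome 6, minus strand, from 134692431 to 134769687. It had 328, 273 and 363 counts untreated and 718, 651 and 624 with IFN-γ. The lowest IFN-γ library was well above the highest untreated one. The mean level rose from 10.3 ± 0.924 CPM to 21.1 ± 1.01 CPM, and edgeR estimated a log2 fold change of 1.04 ± 0.09 (adjusted p = 4.00e-05). The rise was called under every setting, but it was under 2-fold with total counts alone (log2 fold change 0.86) and with upper quartile scaling (0.89), and without untreated replicate 2 (0.96) or IFN-γ replicate 1 (0.99).

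Dusp8, known mainly from brain and directed at JNK and p38, was near the limit of detection. The gene is on chromosome 7, minus strand, from 141633224 to 141649799. Its counts were 14, 7 and 14 untreated and 35, 28 and 33 with IFN-γ, all above the floor of 3 counts and without overlap. The mean level rose from 0.372 ± 0.12 CPM to 1.02 ± 0.0921 CPM, and edgeR estimated a log2 fold change of 1.43 ± 0.26 (adjusted p = 0.00344). It was not tested under the filter of 5 CPM, which it could not reach.

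Among the nuclear, inducible phosphatases only Dusp2 was called. Dusp2, a phosphatase of blood cells, is on chromosome 2, plus strand, from 127178079 to 127180297, with 1618 exon bases. Its counts were 164, 216 and 221 untreated and 525, 534 and 608 with IFN-γ. The groups lay far apart, with no untreated library above 221. The mean level rose from 6.44 ± 0.934 CPM to 17.7 ± 1.73 CPM, and edgeR estimated a log2 fold change of 1.46 ± 0.12 (adjusted p = 3.83e-05).

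Dusp1, which acts mainly on p38 and JNK and is known as a brake on macrophage cytokine production, was the second most abundant member by CPM. It is on chromosome 17, minus strand, from 26724565 to 26727446. Its counts were 4141, 4245 and 4373 untreated and 4179, 4013 and 4107 with IFN-γ, and the groups overlapped. The level was 137 ± 7.002 CPM untreated and 131 ± 1.78 CPM with IFN-γ, and edgeR estimated a log2 fold change of -0.07 ± 0.06 (adjusted p = 0.392). The call depended on the scaling of the libraries, since Dusp1 was lower with upper quartile scaling (-0.22, adjusted p = 0.0204) and with total counts alone (-0.24, adjusted p = 0.00615).

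Dusp4, a nuclear relative of Dusp1, is on chromosome 8, plus strand, from 35274764 to 35287048. It had 2378, 1432 and 2593 counts untreated and 2004, 1562 and 1549 with IFN-γ. Untreated replicate 2 stood apart from the other 2 untreated libraries and was the lowest of all 6. The level was 68.1 ± 17.1 CPM untreated and 54.2 ± 6.57 CPM with IFN-γ, and edgeR estimated a log2 fold change of -0.33 ± 0.18 (adjusted p = 0.192). Without untreated replicate 2, Dusp4 was called lower, at -0.52 with an adjusted p of 0.00103. The change of log2 level with gene length was taken for each library against the mean of the others in its group. It was steepest in untreated replicate 2, at -0.139 for each doubling of exon bases. With each library's trend removed, Dusp4 stayed uncalled (log2 fold change -0.31, edgeR adjusted p = 0.22).

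Dusp5, a nuclear phosphatase selective for ERK, is on chromosome 19, plus strand, from 53517576 to 53530240. It had 709, 687 and 800 counts untreated and 862, 800 and 831 with IFN-γ. After scaling, every IFN-γ library was above every untreated one, by a small margin. The level was 23.5 ± 0.244 CPM untreated and 26.5 ± 0.37 CPM with IFN-γ, and edgeR estimated a log2 fold change of 0.17 ± 0.06 (adjusted p = 0.0514), just above the threshold of 0.05. It was called higher by limma-voom (adjusted p = 0.0476), without untreated replicate 2 (0.0385) and with the length trends removed (0.0305), while its log2 fold change was -0.00015 with total counts alone.

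Both cytoplasmic, ERK-selective phosphatases fell. Dusp6, which binds ERK and is itself made in response to ERK activity, is on chromosome 10, plus strand, from 99098676 to 99103351. Its counts were 2428, 2115 and 2660 untreated and 1577, 1427 and 1420 with IFN-γ. All 3 IFN-γ libraries were lower than all 3 untreated ones. The mean level fell from 77.04 ± 4.84 CPM to 46.9 ± 1.47 CPM, and edgeR estimated a log2 fold change of -0.72 ± 0.06 (adjusted p = 6.56e-05).

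Dusp7, which also dephosphorylates ERK in the cytoplasm, is on chromosome 9, plus strand, from 106245831 to 106252923. It had 2339, 2094 and 2647 counts untreated and 2121, 1922 and 1963 with IFN-γ. In CPM the groups did not overlap, although the gap was small. The mean level fell from 75.7 ± 4.21 CPM to 63.7 ± 1.44 CPM, and edgeR estimated a log2 fold change of -0.25 ± 0.06 (adjusted p = 0.0132). This call was lost without untreated replicate 3 (adjusted p = 0.0568), IFN-γ replicate 2 (0.0705) or IFN-γ replicate 3 (0.0578).

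Dusp3, the small phosphatase that acts on ERK and JNK, is on chromosome 11, minus strand, from 101861967 to 101877839. Its counts were 6544, 6398 and 7446 untreated and 5858, 5672 and 5698 with IFN-γ. The groups did not overlap, and the spread within each was narrow after scaling. The mean level fell from 218 ± 2.25 CPM to 183 ± 2.19 CPM, and edgeR estimated a log2 fold change of -0.25 ± 0.05 (adjusted p = 0.00434), and it was lower under all 15 other settings.

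**Figure D2:**
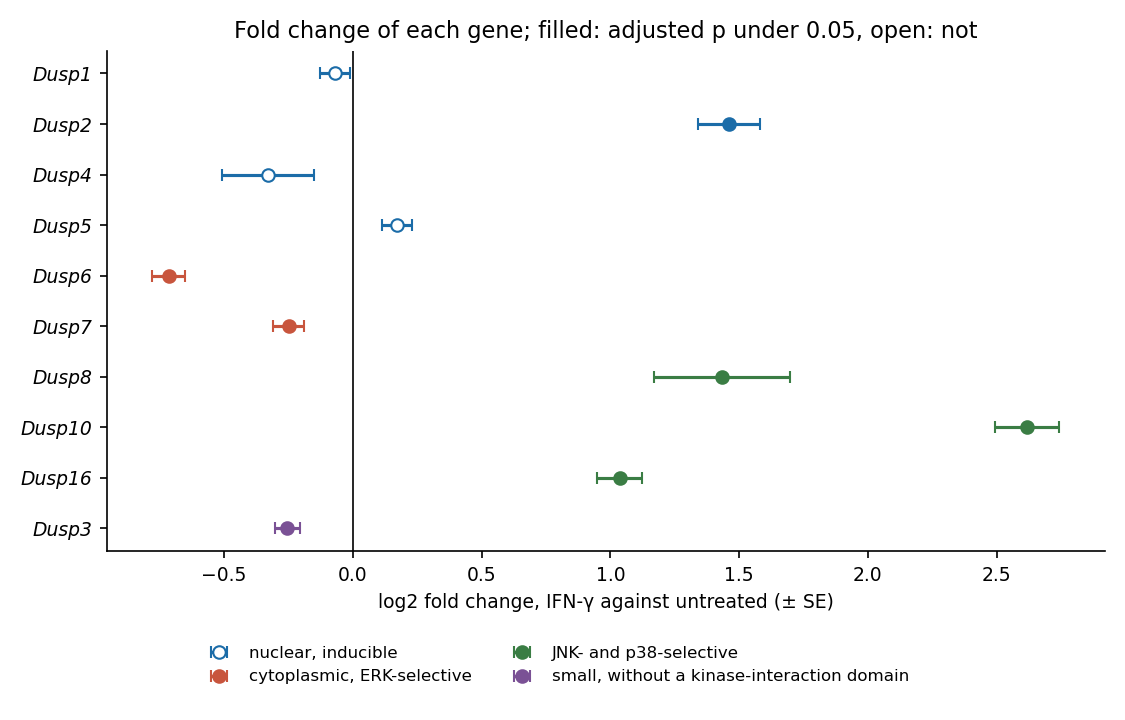
Log2 fold change (IFN-γ against untreated, ± SE) of each gene, coloured by class, with filled points for an adjusted p under 0.05. The 3 JNK- and p38-selective genes and Dusp2 lie at 1.04 or higher, while Dusp6, Dusp7 and Dusp3 lie between -0.72 and -0.25.

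The values moved with the scaling of the libraries. Upper quartile scaling and total counts alone moved the median log2 fold change of all genes from -0.01 to -0.16 and -0.18, and lowered the share of called genes on the higher side from 53.8% to 30.6% and 26.9%. All 10 members moved down by a like amount under them. Dusp10, Dusp2, Dusp8 and Dusp16 were called higher, and Dusp6, Dusp7 and Dusp3 lower, under all 3 other scalings.

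**Figure D3:**
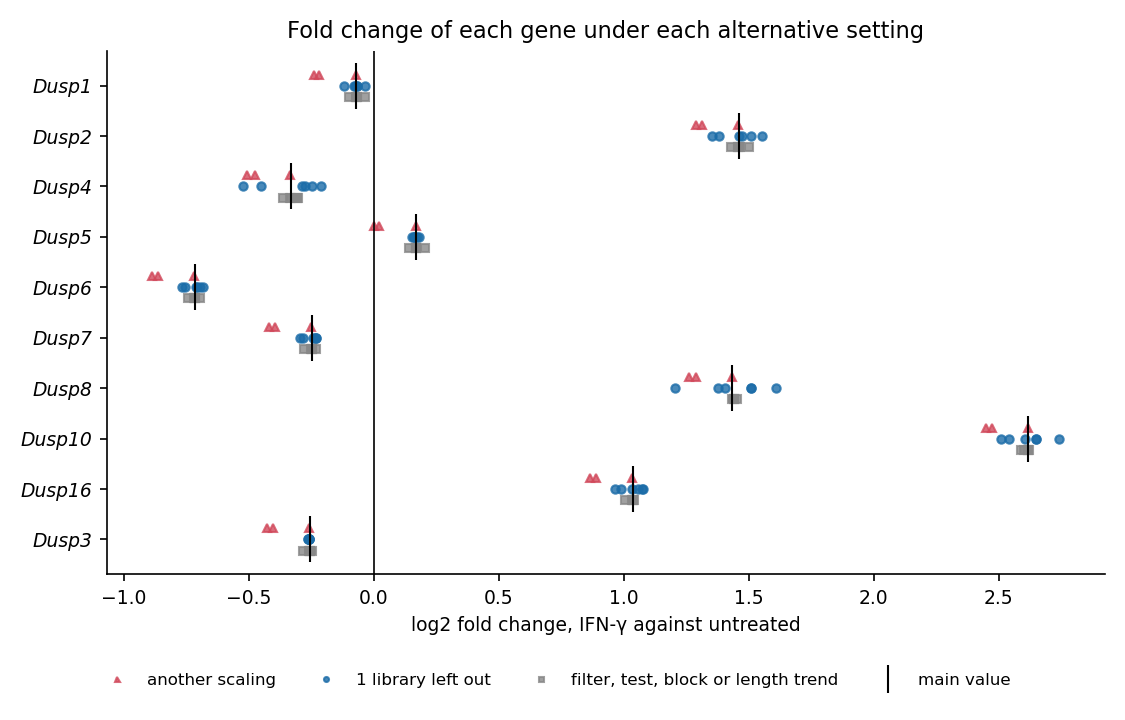
Log2 fold change of each gene as reported (black line) and under each alternative: another scaling (triangles), 1 library left out (circles), or another filter, test, replicate block or length trend correction (squares). No point of Dusp2, Dusp8, Dusp10, Dusp16, Dusp6, Dusp7 or Dusp3 crosses 0, and the leftmost circle of Dusp4 is the value of -0.52 without untreated replicate 2.

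To compare levels between genes, deposited TPM, which divide counts by gene length, were used. Untreated macrophages had 153 ± 6.66 TPM of Dusp1 and 106 ± 8.60 TPM of Dusp3, followed by Dusp4, Dusp6, Dusp7, Dusp5, Dusp2, Dusp16, Dusp10 and Dusp8, the last at 0.15 ± 0.0563 TPM. The levels of Dusp4, Dusp6 and Dusp7 overlapped between libraries, while the other neighbours in that order did not. Within a library, Dusp4 was above Dusp6 in 2 of the 3 untreated libraries and Dusp6 above Dusp7 in all 3. With IFN-γ the order was the same except that Dusp7, at 39.7 ± 2.25 TPM, came before Dusp6, at 29.3 ± 1.94 TPM, and Dusp6 then overlapped Dusp5, at 29.2 ± 1.12 TPM. Dusp4 overlapped Dusp7 there. Within a library, Dusp4 was above Dusp7 in all 3 IFN-γ libraries, and Dusp6 above Dusp5 in 2.

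Shares of the classes within the family were compared between the groups, and none of the differences passed its test. The share of the summed TPM of the 10 genes that came from Dusp8, Dusp10 and Dusp16 was 1.06%, 0.975% and 1.10% in untreated replicates 1, 2 and 3, and 3.03%, 2.88% and 2.77% in those given IFN-γ. That of Dusp6 and Dusp7 was 22.4%, 21.5% and 22.7% untreated and 17.9%, 17.5% and 17.3% with IFN-γ. Neither class overlapped between the groups, and such shares do not depend on how libraries are scaled to each other. The nuclear, inducible class went from 54.002% ± 0.502 to 58.7% ± 0.301, and Dusp3 from 22.8% ± 0.698 to 20.8% ± 0.458 (mean ± SD, n = 3 each). Dusp2 by itself went from 1.87% ± 0.331 to 5.59% ± 0.569, and Dusp1 held 33.02% ± 2.61 and 34.3% ± 0.73. A higher share is not a higher level of each member. In this class mean TPM went from 153 to 135 for Dusp1 and from 61.9 to 44.8 for Dusp4. It went from 28.2 to 29.2 for Dusp5 and from 8.62 to 21.9 for Dusp2. The exact two-sided permutation test gave p = 0.1 for each of the 4 class shares, the smallest that 3 libraries against 3 allow, and an adjusted p of 0.125 over 5 comparisons. The summed level was 467 ± 49.1 TPM untreated and 393 ± 17.1 TPM with IFN-γ, with overlap between the groups (exact permutation p = 0.2).

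**Figure D4:**
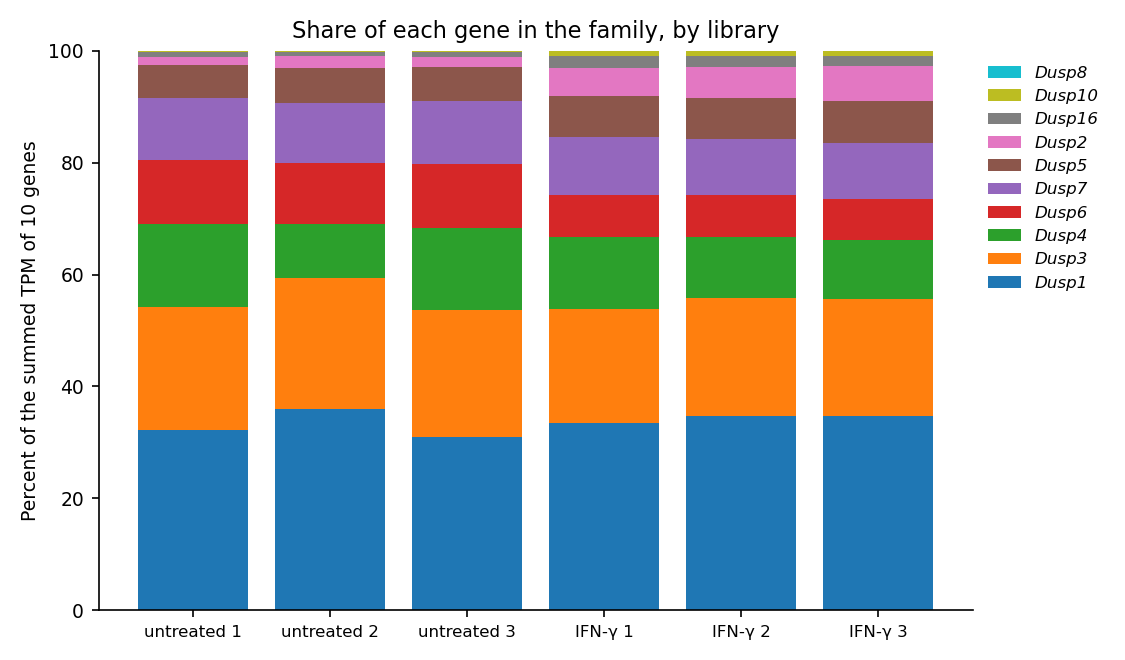
Share of each gene in the summed TPM of the 10 genes, 1 bar per library, from Dusp1 at the bottom to Dusp8 at the top. Dusp1 fills between 30.9% and 35.9% of every bar, and the bands of Dusp2, Dusp16 and Dusp10 are wider in the IFN-γ bars while that of Dusp6 is narrower.

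RefSeq promoters (GRCm38.p6, 250 bases before to 50 after the start site) were found for 9 of the 10 genes, with none for Dusp4. They are shown for the 4 genes that rose, and for Dusp1 and Dusp5, which hold motifs of signal-responsive factors and were not called. Capitals mark matches to the motifs searched, each given 5′ to 3′ on the strand of the gene. The windows are chr1:184034131-184034430 (plus) for Dusp10, chr2:127335909-127336208 (plus) for Dusp2, chr6:134792579-134792878 (minus) for Dusp16, chr7:142095235-142095534 (minus) for Dusp8, chr17:26508423-26508722 (minus) for Dusp1 and chr19:53528895-53529194 (plus) for Dusp5.
Dusp10: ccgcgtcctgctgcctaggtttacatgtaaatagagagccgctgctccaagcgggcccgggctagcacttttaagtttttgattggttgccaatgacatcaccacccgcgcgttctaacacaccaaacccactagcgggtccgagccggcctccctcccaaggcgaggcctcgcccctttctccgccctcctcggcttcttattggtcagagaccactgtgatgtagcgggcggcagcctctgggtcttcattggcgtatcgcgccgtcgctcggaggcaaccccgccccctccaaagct
Dusp2: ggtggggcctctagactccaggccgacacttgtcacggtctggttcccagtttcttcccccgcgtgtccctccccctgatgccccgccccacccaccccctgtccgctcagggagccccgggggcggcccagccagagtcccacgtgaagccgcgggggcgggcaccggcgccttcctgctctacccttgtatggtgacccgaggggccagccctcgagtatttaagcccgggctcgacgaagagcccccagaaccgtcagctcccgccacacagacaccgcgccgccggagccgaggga
Dusp16: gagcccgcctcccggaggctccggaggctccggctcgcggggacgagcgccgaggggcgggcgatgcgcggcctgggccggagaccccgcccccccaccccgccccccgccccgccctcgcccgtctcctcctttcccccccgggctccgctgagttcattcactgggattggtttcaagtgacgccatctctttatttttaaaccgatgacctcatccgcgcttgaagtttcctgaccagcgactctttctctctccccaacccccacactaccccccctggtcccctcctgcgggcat
Dusp8: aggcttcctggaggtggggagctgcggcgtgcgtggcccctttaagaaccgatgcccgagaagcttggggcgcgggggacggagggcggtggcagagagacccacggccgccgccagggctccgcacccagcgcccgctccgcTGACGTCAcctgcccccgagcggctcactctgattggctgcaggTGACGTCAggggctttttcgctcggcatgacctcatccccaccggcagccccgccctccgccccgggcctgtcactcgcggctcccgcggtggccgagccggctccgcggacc
Dusp1: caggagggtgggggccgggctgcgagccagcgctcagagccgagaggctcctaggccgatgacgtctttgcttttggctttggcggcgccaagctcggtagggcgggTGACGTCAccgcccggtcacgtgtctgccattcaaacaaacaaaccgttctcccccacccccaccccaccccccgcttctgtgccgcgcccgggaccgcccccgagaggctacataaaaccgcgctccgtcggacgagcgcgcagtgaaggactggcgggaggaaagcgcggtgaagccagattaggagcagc
Dusp5: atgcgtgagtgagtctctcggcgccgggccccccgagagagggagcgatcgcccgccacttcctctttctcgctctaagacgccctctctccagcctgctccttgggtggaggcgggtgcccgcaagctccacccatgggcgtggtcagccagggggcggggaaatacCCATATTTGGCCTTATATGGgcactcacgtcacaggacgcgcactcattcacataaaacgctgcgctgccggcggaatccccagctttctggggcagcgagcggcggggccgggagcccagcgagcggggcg

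Of the motifs searched on both strands, the cAMP response element TGACGTCA, bound by CREB and ATF factors, occurred in 2 of the 9 member promoters, against 1.79% of all 32851 promoters in the table. Dusp8 held it at positions -107 and -63 from the start site, and Dusp1 at -143. The CArG box, bound by serum response factor, occurred in Dusp5 alone of the 9, as a pair of adjoining matches at -82 and -72, and in 1.63% of all promoters. The STAT element TTCNNNGAA was in 0 of the 9 and in 8.30% of all promoters, the AP-1 element TGANTCA in 0 and in 7.81%, and the NF-κB site in 0 and in 8.46%. No matches overlapped one another. The member promoters were rich in G and C, from 57.3% in Dusp6 to 78.7% in Dusp7, all 9 above the median of 52.7% over all promoters. The shares over all promoters were not matched for this content, on which the frequency of a motif can depend. A match is a description of letters in this window, and its absence says nothing about binding elsewhere.

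AU-rich elements in the 3′ untranslated region mark many short-lived mRNAs, and proteins such as that of Zfp36 bind them. The element TATTTAT was sought in the first 500 bases after the stop codon (GENCODE M21, longest annotated 3′ untranslated region of each gene). It occurred in 2 of the 10 members, Dusp1 and Dusp8, and in 11.8% of the 14264 genes with a region of at least 500 bases. Dusp1 had 2 copies there and Dusp8 had 1. Over the whole region Dusp1 had 3 copies and Dusp8 had 2. Dusp2, whose region is 581 bases long, had 1 copy, which was not within the first 500 bases. The first copy is shown for Dusp1 and Dusp8, in capitals, within the bases around it. The positions are chr17:26506159-26506187 (minus) for Dusp1 and chr7:142081715-142081743 (minus) for Dusp8, both GRCm38.
Dusp1: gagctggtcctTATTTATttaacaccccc
Dusp8: tttcgatttttTATTTATttaagctagtg

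Among regulators of AU-rich mRNA, Zfp36, which promotes decay of such mRNAs, rose from 180 ± 7.70 to 428 ± 9.89 CPM (log2 fold change 1.25 ± 0.06). Its relatives Zfp36l1 and Zfp36l2 fell, with log2 fold changes of -0.59 ± 0.05 and -0.23 ± 0.05, the latter losing its call without IFN-γ replicate 2 (adjusted p = 0.0573). Of the 8 genes of this list tested, 1 was higher and 3 were lower in edgeR's test.

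Genes in the rest of the MAP kinase pathway moved in both directions. Over 10 fixed lists, 107 of 129 listed genes were tested, 28 were higher and 24 lower, and their median log2 fold change was 0.01, near the -0.01 of all genes, of which 19.6% were called higher and 16.8% lower. The split depended on the scaling, with 16 higher and 41 lower with upper quartile scaling and 14 higher and 42 lower with total counts alone. Without IFN-γ replicate 2, 18 were higher and 17 lower. The genes called but not described below, named here after their values were seen, were Dusp11, Dusp23, Dusp28, Ppp2r1a, Mapk13, Braf, Map3k3, Map3k9, Map3k11, Mapkapk3, Rps6ka3, Rps6ka4, Fos, Atf3 and Creb1 on the higher side and Dusp12, Epm2a, Map3k5, Map3k10, Map3k20, Rps6ka2, Fosb, Jun, Elk3 and Tial1 on the lower side.

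Of the 16 other dual-specificity phosphatase genes tested, 3 were higher and 5 lower, with a median of -0.22. The ERK-directed phosphatase gene Dusp9, which belongs to the same class as Dusp6 and Dusp7, fell from 4.68 ± 0.488 to 2.20 ± 0.271 CPM (log2 fold change -1.09 ± 0.13, edgeR adjusted p = 0.00039). Ssh2, a slingshot phosphatase gene that acts on cofilin, fell by 1.06 ± 0.16 on the log2 scale, and Dusp18 fell by 0.83 ± 0.12. Of 8 other phosphatases that act on MAP kinases, 2 were higher and 2 lower. Ppm1d fell by 0.60 ± 0.08, and Ptpn7, a tyrosine phosphatase gene of blood cells, fell by 0.22 ± 0.05, the latter not called without IFN-γ replicate 2 (adjusted p = 0.05002). Ppm1b had a log2 fold change of 0.20 ± 0.06 and lost its call under 8 of 15 other settings.

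The MAP kinases themselves were called in 3 of 10 cases, 2 higher and 1 lower. Mapk14, which encodes p38 alpha, fell from 96.9 ± 4.96 to 64.6 ± 2.81 CPM (log2 fold change -0.59 ± 0.06). Mapk9, which encodes a JNK, rose from 64.3 ± 1.94 to 92.5 ± 2.76 CPM, or 0.52 ± 0.05. The other MAP kinase gene called higher had a mean under 1 CPM and is only listed by name above. Log2 fold changes in this list ran from -0.59 to 2.01. Of the 7 MAP kinase kinases, 2 were higher and 1 lower. Map2k6, an activator of p38, fell by 1.12 ± 0.18, Map2k4, an activator of JNK and p38, rose by 0.36 ± 0.06, and Map2k1, an activator of ERK, rose by 0.27 ± 0.05. The call of Map2k1 was lost with upper quartile scaling and total counts, and that of Map2k4 with total counts.

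Further up the pathway, 5 of 18 MAP3 and RAF kinase genes tested were higher and 5 lower. Map3k8, the kinase that links NF-κB signalling to ERK in macrophages, rose by 0.65 ± 0.07, while Map3k1 and Map3k12 fell by 0.63 ± 0.07 and 0.59 ± 0.15. Map3k12 lost its call without untreated replicate 3 (adjusted p = 0.0508) or IFN-γ replicate 2 (0.0502). Of the 8 scaffold genes tested, 2 were higher and 1 lower. Arrb1, a beta-arrestin gene, fell by 0.70 ± 0.14, and Iqgap1 and Mapk8ip3 had log2 fold changes of 0.40 ± 0.13 and 0.33 ± 0.10, each losing its call under 7 of 15 other settings.

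Downstream, 4 of 10 MAPK-activated kinase genes were higher and 3 lower. Mapkapk2, the p38-activated kinase, rose from 206 ± 11.1 to 454 ± 5.43 CPM (log2 fold change 1.14 ± 0.06, edgeR adjusted p = 2.29e-06). Mknk2 and Rps6ka5, kinases activated by ERK and p38, fell by 0.89 ± 0.05 and 0.75 ± 0.09. Spred1, an inhibitor of ERK signalling, was the 1 gene called of 4 tested in its list and rose from 243 ± 9.97 to 410 ± 2.10 CPM, or 0.75 ± 0.06. Of 18 MAPK-responsive transcription factor genes, 6 were higher and 3 lower, with Egr3 at 2.98 ± 0.09, Junb at 1.06 ± 0.07 and Egr1 at 0.52 ± 0.07. The 3 given here all rose, while log2 fold changes in the list ran from -2.49 to 2.98.

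**Figure D5:**
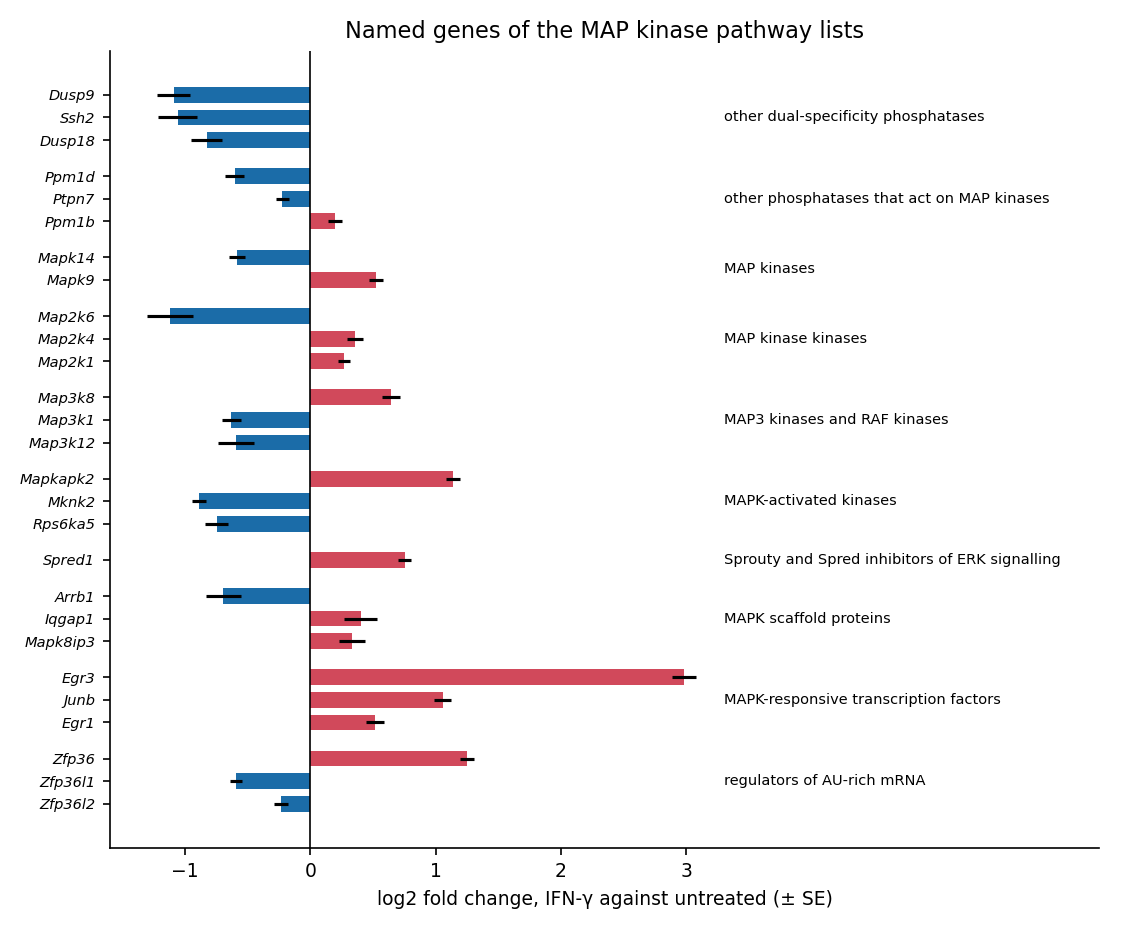
Log2 fold change (± SE) of the named genes of the MAP kinase pathway lists, grouped by list, with bars from 0, rises in red and falls in blue. Egr3, at 2.98, has the longest bar, and most lists hold bars on both sides of 0.

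The 10 members shared little sequence with other genes. Of the 50-base stretches in their GENCODE transcripts, 0.419% of Dusp3 and 0.187% of Dusp8 occurred in another gene, and 0 of the other 8. Exons of Dusp6, Dusp8 and Dusp16 overlapped genes on the opposite strand by 9.52%, 5.19% and 2.54% of their length, and these partners had a mean of 0.667, 0 and 0.333 counts per library.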

How the data were processed

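The 6 libraries comprised 3 untreated and 3 given IFN-γ. Per the submitters' processing notes, reads were aligned with HISAT2 to mm10; the sources used here give no version, counting tool or use of strand. Per the file headers, each table deposited by the authors holds counts, TPM and FPKM per gene. Counts were used for tests and TPM for levels between genes, and the deposited FPKM were not used.

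Deposited counts were tested with edgeR 4.0.16 in R 4.3.3 (filterByExpr, minimum count 10 and total 15; TMM; glmQLFit and glmQLFTest, two-sided; Benjamini-Hochberg over 12968 genes). Standard errors were taken as the absolute log2 fold change over the root of the F statistic. On data simulated for this comparison, 12780 genes were tested. The test recovered 72%, 94%, 96% and 100% of 50 genes each changed 1.5-, 2-, 4- and 8-fold, and 5.24% of calls were false. Only those genes were changed, in equal numbers up and down, and no length trends were simulated. The simulation therefore cannot show the error rate for these data, where many more genes were called and the balance depended on scaling. Other settings tried were scaling by RLE, by upper quartile or by total counts, no filter, 5 CPM in 3 samples, DESeq2 1.42.0, limma-voom (limma 3.58.1), the replicate number as a block and each library left out. A fit with length trends removed per library was added after seeing the data.

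The members and lists were chosen with earlier results of these data known. All members are named. Of each list, up to 3 called genes with at least 1 CPM and the largest changes are named, or the 2 most abundant if none was called. Figures and permutations used Python 3.11.15, scipy 1.17.1 and matplotlib 3.10.9. Floors cover counting error only.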

Additional observations from a re-analysis of the deposited data

How the results depend on the processing

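Each fit-based result was recomputed under 15 alternatives, except that Dusp8, Dusp9, Dusp18 and Map2k6 were not tested under the filter of 5 CPM. Dusp2, Dusp3, Dusp6, Dusp8, Dusp10 and Dusp16 kept their direction and call in every fit that included them. Over all alternatives 3 to 5 members were higher and 2 to 4 lower. With upper quartile scaling 4097 of all genes were lower, and 16 genes of the pathway lists were higher and 41 lower. With total counts alone 1666 of all genes were higher and 4520 lower, 14 pathway genes were higher and 42 lower, and Dusp5 turned from 0.17 to -0.00015 on the log2 scale. The cause was not tested. Without 1 library at a time, pathway genes called higher ranged from 18 (without IFN-γ replicate 2) to 35 (without untreated replicate 2). In CPM instead of TPM, which weights long genes more, the share of the nuclear, inducible class was 3.07 percentage points higher with IFN-γ, against 4.73 in TPM, and that of Dusp8, Dusp10 and Dusp16 was 4.26 points higher, against 1.85. With the replicate block, 2723 of all genes were higher and 2327 lower, 4 members were higher and 3 lower, and no member's call changed; deviations of same-numbered libraries correlated at 0.306, 0.144 and -0.0703, so the numbers were not taken as pairs, and not every library correlated best with its own number. Depth limited the precision most for Dusp8, with 7 to 14 counts per untreated library.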
